A study of Mus musculus with 44 samples.

Results

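The response of inflamed transfer colitis to an MK2 inhibitor was examined in 12 of the 44 intestinal libraries of the study, 6 from mice given the inhibitor and 6 from mice given vehicle. All 12 came from Rag1 null mice on the C57BL/6 strain that had received 400000 naive T cells by intraperitoneal injection and had developed colitis within 8 to 12 weeks. Rag1 null mice make no T or B cells of their own, so the T cells in these animals are the transferred ones. Treated mice received ATI-450, an inhibitor of MK2, at 3 mg/kg, were dosed again 16 h later and were killed 90 min after the second dose. The description of the series gives the treatment as 24 h. Vehicle mice followed the same schedule with methylcellulose and Tween20 in PBS. A further 11 transfer libraries, 6 with the inhibitor and 5 with vehicle, came from Rag1 null mice injected with 200000 bulk T cells. Those mice served as the uninflamed controls. In the model their libraries shared its estimate of spread and helped to estimate the batch term, which adjusts the contrast in inflamed mice. They also served the test of a difference between inflamed and non-inflamed mice. The labels of these mice give no age. They also do not state that each library is a separate mouse, so p-values measure the spread between these libraries, which may in part be technical.

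MK2 is the kinase encoded by Mapkapk2 and is switched on by p38 MAP kinase, which is encoded by Mapk14, when cells sense bacterial products, cytokines or stress. Active MK2 phosphorylates tristetraprolin, the product of Zfp36, a protein that binds AU-rich elements in the 3' untranslated region (3' UTR) of many cytokine mRNAs and marks them for decay. With tristetraprolin phosphorylated, mRNAs such as that of Tnf last longer and are translated more. In transfer colitis, naive CD4 T cells expand against gut bacteria in a host without regulatory T cells and drive an infiltrate of monocytes and neutrophils into the colon wall.

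The AU-rich letters that this pathway acts through are shown for 5 of the measured mRNAs, because the comparison turns on whether such mRNAs were lower with the inhibitor. The stretches were read from GENCODE M21 transcripts on GRCm38, 5′ to 3′ on the mRNA strand with T for U. Capitals mark the bases that belong to the 9-base motif TTATTTATT, and lower case marks the flanking bases.
Tnf, chr17:35199690-35199716, minus strand: ttgcacttaTTATTTATTATTTATTTA
Cxcl1, chr5:90892616-90892642, plus strand: tttatgtatTTATTTATTccacaaagt
Cxcl2, chr5:90905317-90905343, plus strand: agagttcacTTATTTATTtatctatgt
Ptgs2, chr1:150105791-150105817, plus strand: tgaccatatTTATTTATTtatgtgaag
Zfp36, chr7:28376952-28376978, minus strand: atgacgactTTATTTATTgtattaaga
All 5 stretches lie in the 3' UTR of the gene named. The 3' UTR of Tnf held 5 copies of the motif, that of Cxcl2 held 4, that of Cxcl1 held 2, and those of Ptgs2 and Zfp36 held 1 each. Those of Il1a, Il1b, Il6, Il10, Ccl2, Csf3, Cxcl5 and Osm held none, although each had at least 1 copy of the shorter letters ATTTA. The 9-base motif was present in 8.39% of the tested genes with an annotated 3' UTR, and ATTTA, which overlaps it, in 70.2%. Both were searched on the mRNA strand only. A match describes letters and is not evidence of a working element.

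Library totals, in units of 10 to the power of 6 counts (M), ran from 6.84 to 20.7 M with the inhibitor and from 5.95 to 22.3 M with vehicle, and the 4 inflamed libraries of batch 3 were the shallow ones, at 5.95 to 7.16 M. The labels give a batch for each library. The inhibitor libraries were 2 from batch 1, 3 from batch 3 and 1 from batch 4. With vehicle, 1 library was of batch 3 and 5 were of batch 4. Batch 1 therefore held inhibitor libraries alone among the inflamed mice, and within batches the contrast rests on 3 libraries against 1 in batch 3 and on 1 against 5 in batch 4. With the 4 transfer groups fitted together, a batch term raised the variance of the contrast 1.365 times relative to no such term, and with the 2 inflamed groups alone 1.895 times. The counts of called genes and the gene lists the results turn on are therefore given with and without the batch term. Most single genes with an estimate have both values, and some genes are given as ranges alone. A value not given without the batch term does not mean that the estimate held there. Values for the difference between inflamed and non-inflamed mice have the batch term.

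The labels give the tissue as intestine, and the protocol names distal colon and ileum without assigning either to this model. All inflamed libraries but 1, vehicle replicate 3, carried distal colon transcripts. Hoxb13, a homeobox gene of the distal gut, was at 0.0767 counts per M counts (CPM) in that library and between 102 and 280 CPM in the other 11. Sis, the sucrase-isomaltase of small intestinal enterocytes, was at 6515 CPM there and Apoa1, an apolipoprotein of the same cells, at 11510 CPM. Vehicle replicate 1 held 196 CPM of Sis and 348 CPM of Apoa1 beside 111 CPM of Hoxb13, whereas no other inflamed library exceeded 0.95 CPM of Sis. Pancreatic transcripts were a second foreign signal. Prss2, a trypsinogen of acinar cells, was at 3414 and 47.9 CPM in vehicle replicates 1 and 5, at 951, 728 and 208 CPM in inhibitor replicates 3, 5 and 6, and at most 0.419 CPM in the other 7. Krt13, a keratin of squamous epithelium, ran from 0.0767 to 83 CPM with vehicle and from 1.63 to 56.9 CPM with the inhibitor. These levels were not modelled, and their part in any result below was not tested beyond the fits that leave libraries out.

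**Figure D1:**
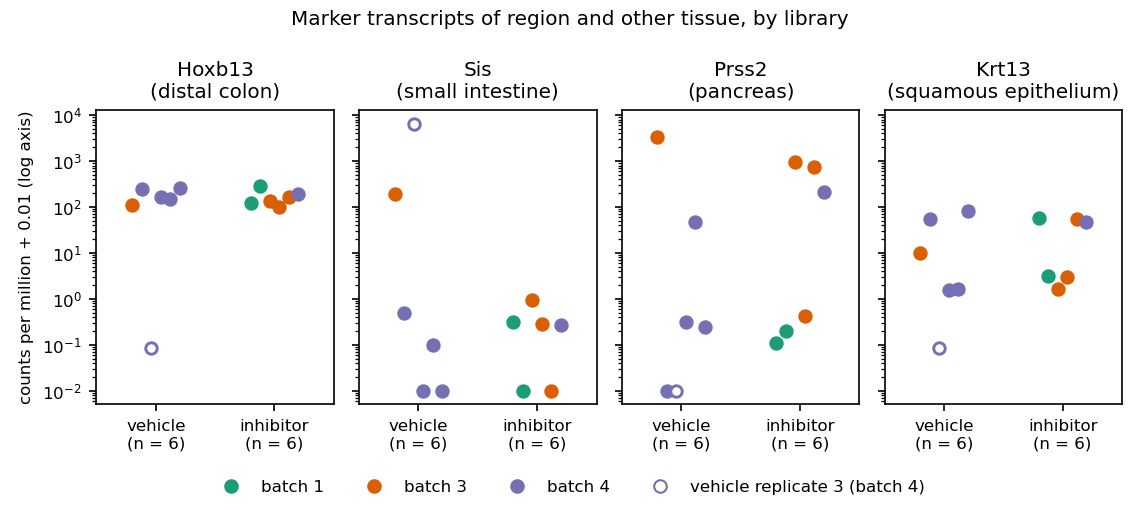
CPM plus 0.01, on a log axis, of Hoxb13, Sis, Prss2 and Krt13 in each inflamed library (points, coloured by batch; open circle, vehicle replicate 3). Hoxb13 sits between 102 and 280 CPM in 11 libraries and at 0.0767 CPM in vehicle replicate 3, which has the highest Sis at 6515 CPM.

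Across 15317 tested genes, the edgeR quasi-likelihood test with the batch term called 1 gene lower with the inhibitor and none higher at a Benjamini-Hochberg adjusted p under 0.05, which is 0.00653% of the genes tested. At an unadjusted p under 0.05 there were 467 genes (3.05%), 190 higher and 277 lower. Without the batch term no gene was called and 965 (6.3%) had an unadjusted p under 0.05, 312 higher and 653 lower (4.26%). Without vehicle replicate 3 no gene was called, with 400 (2.61%) at an unadjusted p under 0.05 when batch was a term and 454 when it was not. DESeq2 on the same design called 5 genes, all lower, and limma-voom with quality weights called 1. The median log2 fold change of all tested genes was -0.0016 with the batch term and 0.011 without it.

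The called gene was Nrn1 (ENSMUSG00000039114), which encodes neuritin, a small membrane-anchored protein known from neurons and from some T cells. It is named because it passed the threshold, after its values were seen, since its mean level was under 1 CPM. Nrn1 had 11, 27, 8, 16, 15 and 12 counts in vehicle replicates 1 to 6, and 4, 10, 0, 1, 0 and 0 counts in inhibitor replicates 1 to 6. The totals were 89 counts with vehicle and 15 with the inhibitor. In CPM the vehicle libraries ran from 0.614 to 1.89 and the inhibitor libraries from 0 to 0.621. The groups met at their edge, with inhibitor replicate 2 at 0.621 and vehicle replicate 3 at 0.614. The inhibitor libraries without a Nrn1 count were 2 of the shallow batch 3 libraries and the deep batch 4 library, which had 20.7 M counts.

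Nrn1 fell by 3.97 on the log2 scale with the batch term (SE 0.66, n = 6 and 6, edgeR quasi-likelihood adjusted p = 0.0487). Without the batch term the log2 fold change was -2.40 (SE 0.78, adjusted p = 0.505), which is no longer a call. Without vehicle replicate 3 it was -4.03 with the batch term (SE 0.67, adjusted p = 0.056) and -2.49 without it (SE 0.82, adjusted p = 1). The adjusted p was also above 0.05 when any other single inflamed library was left out, except inhibitor replicate 2 (0.0112), and ran from 0.0731 without vehicle replicate 5 to 0.993 without vehicle replicate 1, the only batch 3 vehicle library. It was 0.0591 without the count filter. The estimate was below zero in each of these fits. Mean Nrn1 was 1.0 ± 0.505 CPM (SD, n = 6) with vehicle and 0.16 ± 0.241 CPM (SD, n = 6) with the inhibitor. The fitted values hold batch constant where the term is present and need not equal the ratio of these means.

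**Figure D2:**
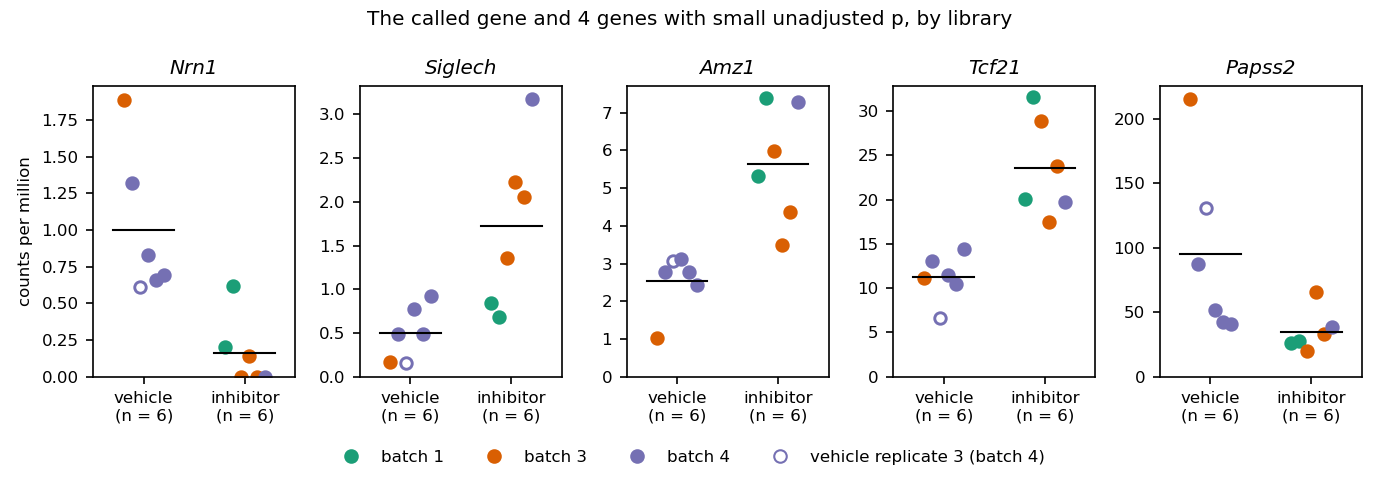
CPM of Nrn1, Siglech, Amz1, Tcf21 and Papss2 in each inflamed library (points, coloured by batch; bars, group means; open circle, vehicle replicate 3). Nrn1 runs from 0.614 to 1.89 CPM with vehicle and from 0 to 0.621 CPM with the inhibitor, and the Tcf21 and Amz1 libraries do not overlap between groups.

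The mRNAs of the kinases themselves did not pass the test. Mapkapk2, which encodes the drug's target, ran from 115 to 168 CPM with vehicle (median 146) and from 130 to 162 CPM with the inhibitor (median 151). Its log2 fold change was -0.04 with the batch term (95% interval -0.28 to 0.21) and 0.04 without it (-0.20 to 0.28). ATI-450 acts on the kinase protein, so the mRNA level does not check the labels or the dosing. Mapkapk3, a close relative of MK2, had an interval of -0.22 to 0.50, and Mapk14, the p38 kinase above both, one of -0.26 to 0.21. For these 3 mRNAs the 95% intervals leave out a 2-fold change in either direction with and without the batch term.

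Of the 23 genes listed for the p38 and MK2 pathway, all were tested and none passed in any of the 4 fits. One had an unadjusted p under 0.05 in the higher direction, against 1.24% of all genes. This was Map2k6, a kinase that activates p38, at 5.56 to 12.9 CPM with vehicle and 8.32 to 15.3 CPM with the inhibitor. Its log2 fold change was 0.64 (SE 0.25, edgeR adjusted p = 0.998), and 0.46 without the batch term, and the groups overlapped. Hspb1, which encodes a small heat shock protein that MK2 phosphorylates, had an interval of -0.96 to 0.48 with the batch term and -0.36 to 1.27 without it.

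No mRNA of a protein that binds AU-rich elements or acts in mRNA decay passed the test. Zfp36 ran from 8.98 to 26.4 CPM with vehicle and from 12.0 to 30.8 CPM with the inhibitor. Its log2 fold change was 0.02 with the batch term (95% interval -0.62 to 0.66) and 0.37 without it (-0.23 to 0.97). With vehicle replicate 3 left out these values were 0.22 (-0.35 to 0.79) and 0.59 (0.00 to 1.17, edgeR adjusted p = 1). Zfp36l1, a relative with the same binding domain, had intervals of -0.35 to 0.40 and -0.05 to 0.72. Elavl1, which encodes the stabilizing protein HuR, was low throughout, at 1.36 to 5.42 CPM over the 12 libraries. Its interval was -0.99 to 0.48 with the batch term and -0.89 to 0.78 without it. Pan2, which encodes a subunit of a poly(A) nuclease, had no count in 8 of the 12 libraries and reached 6.67 CPM with vehicle and 20.6 CPM with the inhibitor. Its log2 fold change was -5.08 with the batch term (95% interval -9.68 to -0.48) and 1.22 without it (-2.63 to 5.06). The edgeR F-test with the batch term gave an unadjusted p of 0.0838 (adjusted p = 0.998). None of the 21 listed binding and decay genes had an unadjusted p under 0.05, with or without the batch term. Dusp1, a phosphatase that switches p38 off and whose mRNA tristetraprolin binds, ran from 9.9 to 35.9 CPM with vehicle and from 12.6 to 27.2 CPM with the inhibitor (interval -0.73 to 0.28, and -0.52 to 0.41 without the batch term).

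Tnf, the cytokine most often used to read MK2 activity, was expressed in all 12 libraries and did not differ beyond their spread. With vehicle it stood at 19.9, 8.44, 2.38, 17.4, 22.5 and 33.1 CPM in replicates 1 to 6, and with the inhibitor at 25.4, 28.7, 9.23, 15.6, 10.7 and 14.6 CPM. The lowest value was vehicle replicate 3 and the highest vehicle replicate 6, so the vehicle range enclosed every inhibitor library. The 2 inhibitor libraries of batch 1 were the highest of their group, and no inflamed vehicle library shares that batch. The log2 fold change was 0.12 with the batch term (95% interval -1.73 to 1.97) and 0.01 without it (-1.50 to 1.53). Without vehicle replicate 3 it was -0.07 (-1.84 to 1.71) and -0.22 (-1.70 to 1.27). A 2-fold fall and a 2-fold rise both lie inside each of these intervals. In non-inflamed mice Tnf reached at most 8.18 CPM with vehicle and 6.1 CPM with the inhibitor.

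Interleukin 1 and its companions gave the same picture of wide vehicle ranges and overlapping inhibitor libraries. Il1b ran from 1.76 to 72.9 CPM with vehicle (median 32.7) and from 17.4 to 38.2 CPM with the inhibitor (median 32.4), a log2 fold change of -0.08 (95% interval -1.89 to 1.72), and -0.24 without the batch term (-1.91 to 1.43). Il1a, the sister cytokine, ran from 1.76 to 11.5 and from 4.47 to 8.88 CPM (interval -1.62 to 1.54). Osm, a cytokine that acts on stromal cells in colitis, was near 1 CPM in both groups (interval -1.73 to 1.54). Il1a and Osm were at -0.13 and -0.11 without the batch term. For all 3 the inhibitor libraries lay inside the vehicle range.

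The chemokines that draw neutrophils and monocytes varied most among vehicle libraries. Cxcl1 ran from 0.0767 to 13.4 CPM with vehicle and from 3.53 to 13.4 CPM with the inhibitor (log2 fold change -0.48, 95% interval -2.72 to 1.77). Cxcl2 ran from 0 to 24.4 and from 3.12 to 16.1 CPM (0.55, interval -1.97 to 3.06). Cxcl5, made largely by epithelium, ran from 0.614 to 208 and from 38.4 to 185 CPM (0.24, interval -2.53 to 3.02). In each the low vehicle values were replicates 2 and 3, the 2 libraries that also had the lowest neutrophil marker scores. Ccl2, the ligand of the monocyte receptor CCR2, ran from 0.691 to 47.2 CPM with vehicle and from 6.98 to 16.0 CPM with the inhibitor (-0.11, interval -2.29 to 2.08), and vehicle replicate 6 alone made the top of that range. Without the batch term the log2 fold changes were -0.10 for Cxcl1, -0.13 for Cxcl2, -0.12 for Cxcl5 and -0.46 for Ccl2. The sign of Cxcl2, Cxcl5 and Tnf turned between fits, and the smallest adjusted p of these chemokines and Tnf in the 4 fits was 0.98, for Ccl2 without the batch term.

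Ptgs2, which encodes the inducible cyclooxygenase of prostaglandin synthesis, was measured more tightly. It ran from 2.92 to 14.4 CPM with vehicle and from 5.44 to 17.5 CPM with the inhibitor. The 95% interval of its log2 fold change was -0.81 to 0.88 with the batch term and -0.32 to 1.27 without it, so a 2-fold fall lies outside both. Il6, Csf3 and Il10 were too low to test. Il6 had a count in 2 of 12 libraries, 5 counts in inhibitor replicate 2 and 8 in inhibitor replicate 6. Csf3 reached at most 20 counts, in vehicle replicate 6, and Il10 at most 6, in inhibitor replicate 2.

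**Figure D3:**
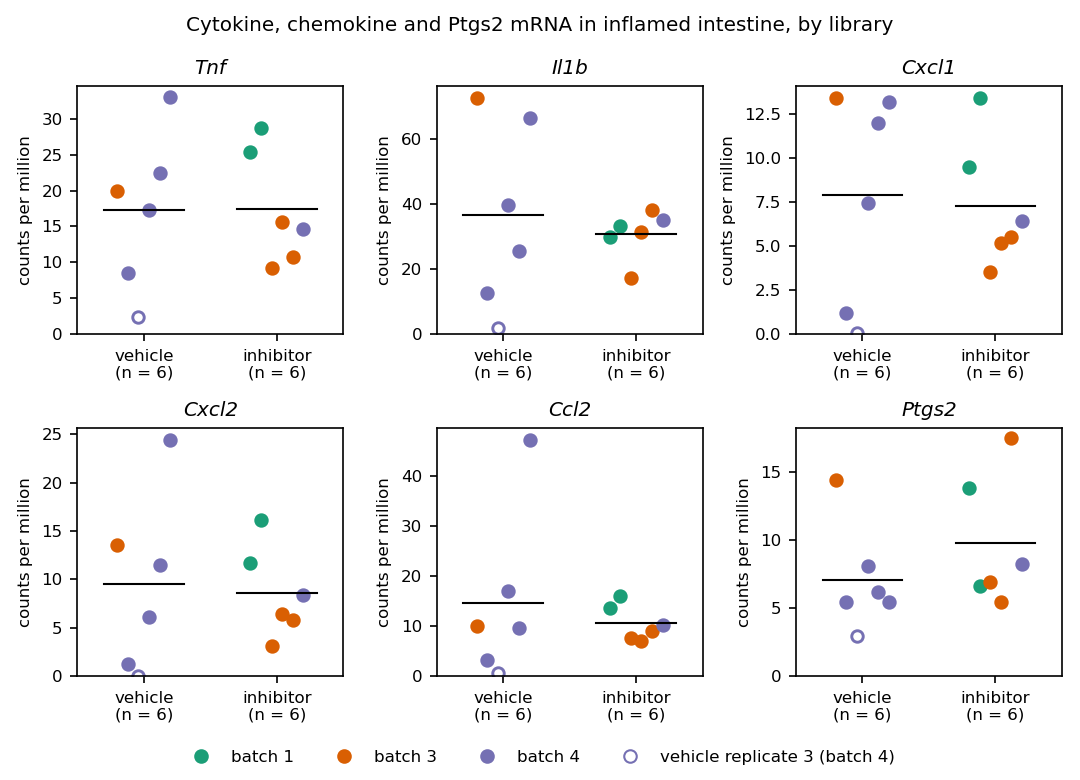
CPM of Tnf, Il1b, Cxcl1, Cxcl2, Ccl2 and Ptgs2 in each inflamed library (points, coloured by batch; bars, group means; open circle, vehicle replicate 3). The groups overlap for all 6 mRNAs, and Tnf spans 2.38 to 33.1 CPM with vehicle and 9.23 to 28.7 CPM with the inhibitor.

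Of the wider list, 24 of 30 cytokine and inflammatory mRNAs with AU-rich letters were tested, and none was called in any of the 4 fits. None had an unadjusted p under 0.05 with the batch term, against 3.05% of all genes, and 1 did without it, Vegfa, a growth factor of blood vessels, in the lower direction (4.26% of all genes), at -0.38 (edgeR adjusted p = 0.713). Estimates lay below zero for 11 of 24 with the batch term (50.2% of all genes) and for 15 without it (48.4%). Without vehicle replicate 3 the count was 20 of 24 with the batch term (48.4% of all genes) and 19 without it (46.6%). The median log2 fold change of the list was 0.018 with the batch term, -0.089 without it, and -0.18 and -0.29 for the same fits without vehicle replicate 3. The list's mean log2 CPM ran from 0.918 to 4.31 with vehicle and from 2.92 to 4.00 with the inhibitor, and vehicle replicates 3 and 2 were the lowest at 0.918 and 2.45.

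Within batches, the list leaned lower with the inhibitor in batch 3 and showed no direction in batch 4. In batch 3, all 3 inhibitor libraries were below the single vehicle library for 19 of 24 mRNAs, where 21.6% of all genes showed this. Tnf, Il1a, Il1b, Cxcl1, Cxcl2, Cxcl5, Ccl2 and Osm were among them. That vehicle library, replicate 1, is the one with pancreatic and small intestinal transcripts, and no second vehicle library of batch 3 gives its spread. In batch 4, the single inhibitor library lay within the range of the 5 vehicle libraries for 21 of 24 mRNAs, below it for 1 (6.78% of all genes) and above it for 2 (11.5%). Without vehicle replicate 3 these numbers were 20, 2 (9.92% of all genes) and 2 (14.8%). A batch held too few libraries for a test of the list.

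The precision reached is part of this result. With the batch term, the 95% interval left out a 2-fold fall for 6 of the 24 AU-rich mRNAs, against 75% of all tested genes. The count was also 6 without the batch term (79.2% of all genes), and it was 4 without vehicle replicate 3 (78.2%). The median SE over all tested genes was 0.279 on the log2 scale, and that of Tnf was 0.89. For most of these cytokine mRNAs a 2-fold difference was not detectable with these libraries, which is different from its absence. Over the transcriptome, 1214 tested genes held the 9-base motif in the 3' UTR. None of them was called, 2.55% had an unadjusted p under 0.05 against 2.99% of all annotated genes tested, and their median log2 fold change was -0.019 beside -0.0046.

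**Figure D4:**
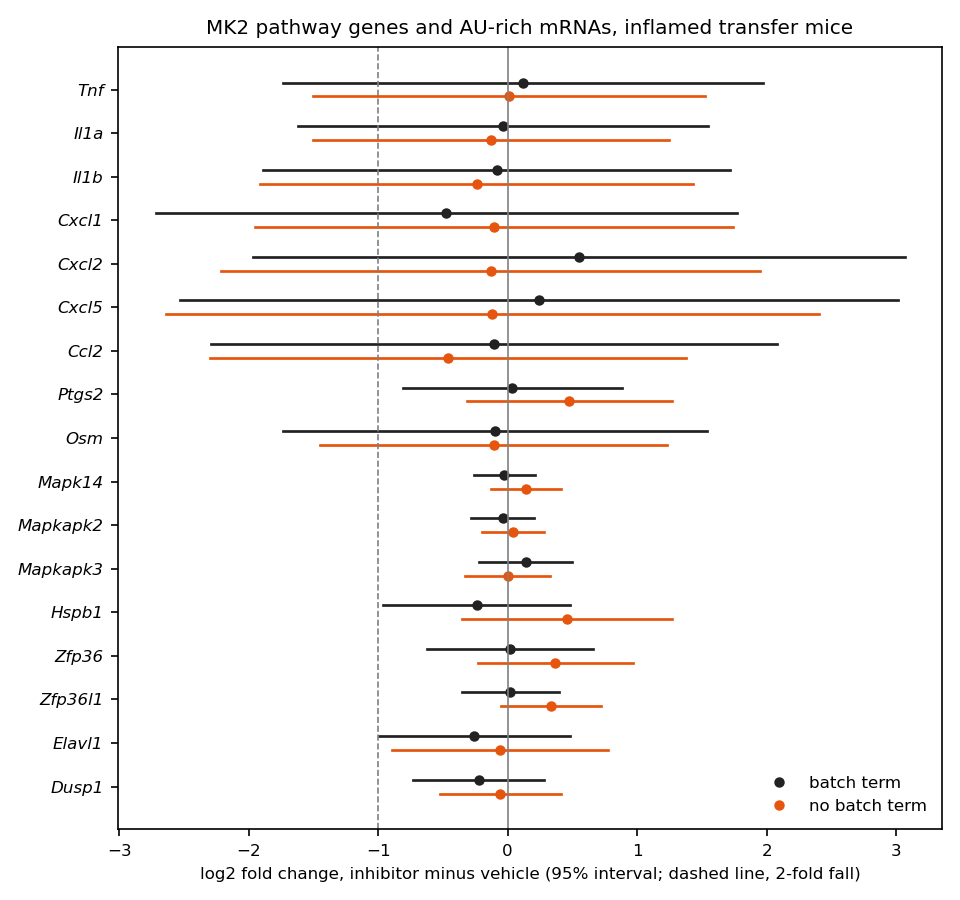
Log2 fold change, inhibitor minus vehicle, with its 95% interval for 17 pathway genes and AU-rich mRNAs, with the batch term (black) and without it (orange); the dashed line marks a 2-fold fall. All the intervals cross zero. Those of Mapk14, Mapkapk2 and Mapkapk3 are the narrowest, closely followed by that of Zfp36l1. That of Tnf reaches from -1.73 to 1.97 with the batch term.

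Genes that respond downstream of these signals also stayed below the threshold. Of 21 tested immediate early genes, 16 NF-kappaB subunits and feedback inhibitors, 17 SOCS and JAK-STAT genes and 10 dual specificity phosphatases, none was called in any of the 4 fits. Socs3, the feedback inhibitor induced by interleukin 6 family cytokines, ran from 69 to 169 CPM with vehicle and from 35.9 to 113 CPM with the inhibitor, a log2 fold change of -1.23 (SE 0.70, edgeR adjusted p = 0.998). Without the batch term the value was -0.59 (SE 0.70), and the groups overlapped. Fosb, a subunit of the AP-1 transcription factor, was the single immediate early gene with an unadjusted p under 0.05 with the batch term, in the higher direction (1.24% of all genes). It ran from 0 to 3.81 CPM with vehicle and from 0 to 5.62 CPM with the inhibitor, with a log2 fold change of 3.83 (95% interval 1.11 to 6.56, edgeR adjusted p = 0.998) and of 0.42 without the batch term (-2.02 to 2.86). Without that term Klf4 and Klf6, 2 zinc finger transcription factors, were under that p in the lower direction (4.26% of all genes), at -0.40 and -0.35. Dusp6, which switches off ERK and reads its activity, ran from 60.5 to 145 and from 55.4 to 84.5 CPM (-0.34, SE 0.29, edgeR adjusted p = 0.998, and -0.46 without the batch term).

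In whole tissue, fewer cells of a type and less RNA per cell cannot be told apart, and this holds for every immune marker here. None of the 22 tested neutrophil markers passed. Their mean log2 CPM was 2.98 to 4.45 with the inhibitor and 0.423 to 5.47 with vehicle, and vehicle replicates 3 and 2 were again the lowest at 0.423 and 1.65. Estimates were below zero for 15 of 22 with the batch term (50.2% of all genes) and 14 without it (48.4%). S100a8, a calprotectin subunit of neutrophils, ran from 7.9 to 1033 CPM with vehicle and from 71.1 to 683 CPM with the inhibitor. Mmp8, the neutrophil collagenase, ran from 0.767 to 19.3 and from 0.937 to 14.9 CPM. Its log2 fold change was -1.665 with the batch term (SE 0.89) and -0.44 without it (SE 0.75).

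T cell markers lay on the other side of zero. Estimates were above zero for 21 of 23 with the batch term and below zero for 2 (50.2% of all genes). Without that term 1 was below zero (48.4%). Without vehicle replicate 3 the count below zero was 2 with the batch term (48.4%) and 2 without it (46.6%). Median log2 fold changes in the same order were 0.63, 0.52, 0.46 and 0.37. None of the 23 passed, or had an unadjusted p under 0.05 with or without the batch term. The list's mean log2 CPM ran from 2.075 to 4.135 with vehicle and from 3.605 to 4.61 with the inhibitor. Cd3e, part of the T cell receptor complex, ran from 2.69 to 13.4 CPM and from 7.4 to 27.9 CPM (log2 fold change 0.92, SE 0.92, and 0.77 without the batch term), and Cd4 from 13.4 to 53.9 and from 28.5 to 57.2 CPM (0.39, SE 0.49, and 0.52 without it). The labels name transferred T cells, and Cd3e and Cd4 were detected in all 12 libraries. Members of this list share the same cells, so their common sign counts once, and no test of the list was made.

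Among monocyte and macrophage markers, 23 tested and none called, Cd163, a scavenger receptor of resident macrophages, had the smallest p. It ran from 1.01 to 11.5 CPM with vehicle and from 0.249 to 7.98 CPM with the inhibitor (log2 fold change -1.78, SE 0.58, edgeR adjusted p = 0.998), and without the batch term the value was -0.53 (edgeR adjusted p = 0.97). Mast cell proteases were higher on average with the inhibitor but overlapped. Mcpt2 ran from 0.767 to 12.0 and from 2.71 to 32.2 CPM (2.03, SE 0.89, edgeR adjusted p = 0.998), and Mcpt1 from 1.2 to 16.4 and from 3.73 to 34.2 CPM (1.88, SE 0.82, edgeR adjusted p = 0.998). These values were 1.5 for Mcpt2 and 1.07 for Mcpt1 without the batch term. B and plasma cell transcripts were scarce, with 9 of 14 listed genes tested. Igha, the heavy chain of IgA, ran from 0.439 to 12.2 CPM with vehicle and from 0.257 to 2.79 CPM with the inhibitor. Its log2 fold change was -2.27 (SE 0.93, edgeR adjusted p = 0.998), and -2.01 without the batch term. Jchain was at -2.36 (SE 0.95, edgeR adjusted p = 0.998), and -1.93 without it. These 2 alone had an unadjusted p under 0.05 with the batch term, in the lower direction (1.81% of all genes). Rag1 null mice make no B cells of their own, and the source of these transcripts was not tested.

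Interferon responses showed how far vehicle replicate 3 and the batch term can move a group. For 20 type I interferon stimulated genes, estimates lay below zero for 12 with the batch term (50.2% of all genes), for 19 without it (48.4%), for 1 without vehicle replicate 3 (48.4%) and for 10 with both changes (46.6%). Medians in the same order were -0.17, -0.73, 0.44 and -0.0023 on the log2 scale. The mean log2 CPM of the list was 6.93 in vehicle replicate 3, 4.36 to 5.16 in the other 5 vehicle libraries and 4.07 to 5.35 with the inhibitor. Mx1, an antiviral GTPase, ran from 0.343 to 7.29 CPM with vehicle and from 1.42 to 5.52 CPM with the inhibitor. Its log2 fold change was 1.02 with the batch term (SE 0.61) and -0.02 without it (SE 0.59). None of the 20 passed in any of the 4 fits. Of 28 tested interferon gamma response genes, 4 lay below zero with the batch term (50.2% of all genes) and 11 without it (48.4%). None of the 28 passed.

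Stromal lists turned with the batch term. Collagen genes lay below zero for 12 of 14 with the batch term and for 3 of 14 without it. Smooth muscle genes did likewise for 12 and 3 of 14, and endothelial genes for 10 and 3 of 13. Of all genes, 50.2% and 48.4% lay below zero in these fits. None of the genes on these lists passed in any of the 4 fits. Col3a1, a fibrillar collagen, ran from 118 to 952 CPM with vehicle and from 248 to 642 CPM with the inhibitor, with a log2 fold change of -0.51 with the batch term (SE 0.30) and -0.15 without it (SE 0.35). Acta2, the smooth muscle actin, ran from 303 to 548 and from 290 to 524 CPM. Its log2 fold change was -0.36 with the batch term (SE 0.23) and 0.12 without it (SE 0.26). With vehicle replicate 3 left out, the counts below zero were 13 and 6 for collagen, 13 and 2 for smooth muscle. They were 12 and 4 for endothelial genes, where 48.4% and 46.6% of all genes lay below zero. No direction is given for these lists.

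Small intestinal epithelial genes were highest in vehicle replicate 3. All 14 tested small intestinal enterocyte genes lay below zero with the batch term (50.2% of all genes). Their median log2 fold change was -4.41, and 13 had an unadjusted p under 0.05 in the lower direction (1.81% of all genes). When that library was left out the median was -1.19 and 8 were under that p (1.37% of all genes), with vehicle replicate 1 still holding 196 CPM of Sis. The list's mean log2 CPM was 11.1 and 6.18 in vehicle replicates 3 and 1, and 2.51 to 3.47 in the 10 other libraries. Defa24, a Paneth cell defensin, reached 1902 CPM with vehicle and 1.18 CPM with the inhibitor. Pancreatic acinar genes lay below zero for 2 of 16 with the batch term (50.2% of all genes) and for all 16 without it (48.4%). Goblet cell genes lay above zero for 12 of 15 with the batch term and below zero for 3 (50.2% of all genes). Without it 4 lay below zero (48.4%), and none of the 15 was called. Muc2, the main gel-forming mucin of the colon, ran from 173 to 583 CPM with vehicle (median 395) and from 337 to 1698 CPM with the inhibitor (median 673). Its log2 fold change was 1.07 (SE 0.48, edgeR adjusted p = 0.998), with 1.16 when batch was no term and 1.14 without vehicle replicate 3.

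**Figure D5:**
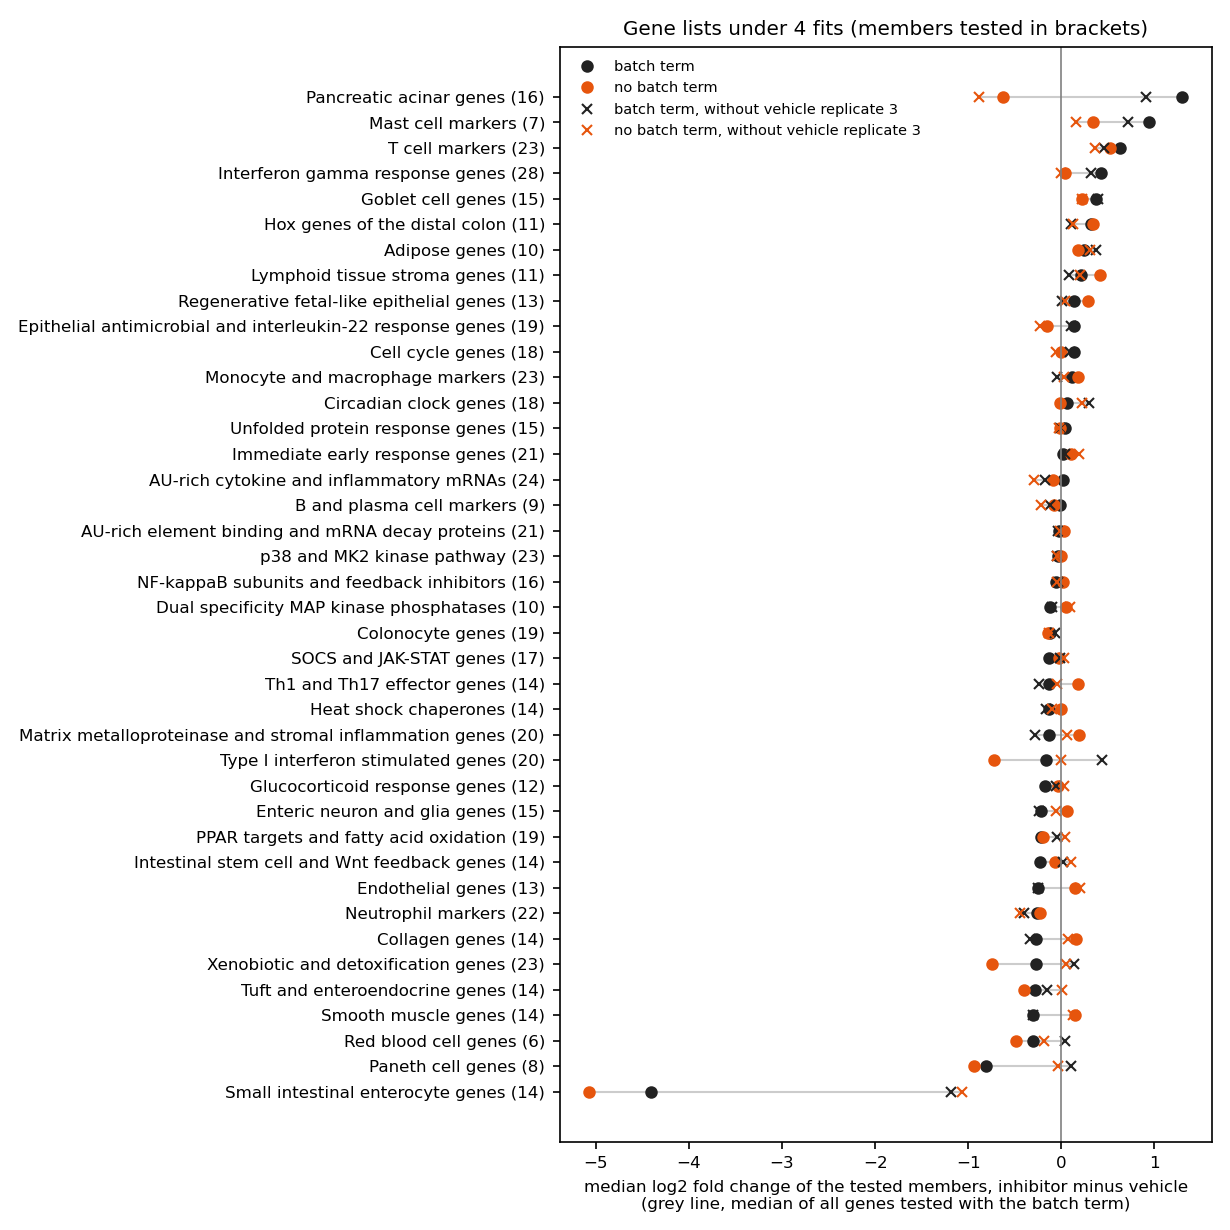
Median log2 fold change, inhibitor minus vehicle, of the tested members of each gene list in 4 fits (circles, all libraries; crosses, without vehicle replicate 3; black, batch term; orange, no batch term). The AU-rich list stays between -0.29 and 0.018, whereas small intestinal enterocyte genes move from -4.41 to -1.19 when vehicle replicate 3 is left out.

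Single genes with the smallest p and a mean of at least 1 CPM were listed in each direction, and none passed adjustment. Siglech, a lectin of plasmacytoid dendritic cells, ran from 0.153 to 0.926 CPM with vehicle and from 0.683 to 3.17 CPM with the inhibitor (log2 fold change 2.14, SE 0.52, edgeR adjusted p = 0.998). Amz1, a predicted metallopeptidase, ran from 1.03 to 3.12 and from 3.49 to 7.39 CPM (1.43, SE 0.35, edgeR adjusted p = 0.998). Tcf21, a transcription factor of mesenchymal cells, ran from 6.67 to 14.5 and from 17.4 to 31.6 CPM. For Tcf21 the log2 fold change was 0.90 with the batch term (SE 0.24, edgeR adjusted p = 0.998) and 1.07 without it (SE 0.21, edgeR adjusted p = 0.229). For Amz1 and Tcf21 all 6 inhibitor libraries lay above all 6 vehicle libraries, as for 9 of the tested genes (0.0588%). Prpf40b and Exd1 completed the higher side, with estimates of 0.65 (SE 0.20) and 1.26 (SE 0.39), which were 0.32 (SE 0.24) and 0.64 (SE 0.39) without the batch term. Siglech and Amz1 were at 1.72 (SE 0.46) and 1.14 (SE 0.30) without it.

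On the lower side, Papss2, which makes the sulfate donor for mucins and proteoglycans, ran from 41.2 to 216 CPM with vehicle and from 19.6 to 65.3 CPM with the inhibitor (log2 fold change -1.56, SE 0.40, edgeR adjusted p = 0.998). Its highest vehicle values, 216 and 131 CPM, were replicates 1 and 3, the libraries with small intestinal transcripts. Without vehicle replicate 3 the log2 fold change of Papss2 was -1.40 with the batch term (SE 0.39). Mttp, Apoa1 and Sis, which serve lipid export and sugar digestion in enterocytes, followed with estimates of -6.25, -12.46 and -11.16. They were -6.51, -12.97 and -11.98 without the batch term, and -2.51, -6.91 and -5.18 with it but without vehicle replicate 3. Cpn2, a subunit of carboxypeptidase N, ran from 0.579 to 3.32 and from 0.26 to 1.09 CPM (-2.17, SE 0.53). Cpn2 was at -1.30 (SE 0.51) and Papss2 at -1.44 (SE 0.35) without the batch term.

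Complete separation of the 6 inhibitor from the 6 vehicle libraries was rare, and it was not set against the rate that chance gives. It occurred for 9 genes with the inhibitor above (0.0588% of those tested) and 12 with the inhibitor below (0.0783%), and without vehicle replicate 3 for 16 (0.104%) and 22 (0.144%). None of the AU-rich, p38 pathway or immune marker genes was among them. Besides Amz1 and Tcf21, the higher genes included Tcf7l2, the transcription factor of Wnt signalling, at 22.6 to 34.8 CPM with vehicle and 38.2 to 54.0 CPM with the inhibitor (log2 fold change 0.34, SE 0.19, edgeR adjusted p = 0.998). The lower genes included Gsk3a, a kinase, at 91.2 to 141 and 81.3 to 86.4 CPM (-0.24, SE 0.11, edgeR adjusted p = 0.998). Triobp, an actin binding protein, was another, at 67.9 to 99.8 and 47.0 to 63.1 CPM (-0.32, SE 0.12, edgeR adjusted p = 0.998). With no batch term these values were 0.52 for Tcf7l2, -0.34 for Gsk3a and -0.49 for Triobp. These 3 were chosen after their values were seen, and they are not read as a pathway. Of 14 tested intestinal stem cell and Wnt feedback genes, none was called. Their estimates lay below zero for 9 with the batch term (50.2% of all genes) and for 7 without it (48.4%).

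Whether the inhibitor acted differently in inflamed and non-inflamed mice was tested as the difference of the 2 contrasts. No gene was called by the edgeR quasi-likelihood test (0%), and 299 (1.95%) had an unadjusted p under 0.05. DESeq2 called 9 and limma-voom 1, and both called Nrn1 (DESeq2 adjusted p = 0.00174, limma-voom adjusted p = 0.00276). The log2 estimates of the 9 DESeq2 calls ran from -30.2 for Gm5812 to 19.2 for Reg3a. For Nrn1 the edgeR difference was -3.76 on the log2 scale (SE 0.78, edgeR adjusted p = 1), for Tnf 0.66 (SE 1.17, edgeR adjusted p = 1) and for Siglech 2.41 (SE 0.66, edgeR adjusted p = 1). In non-inflamed mice Tcf21 ran from 7.86 to 16.4 CPM with vehicle and from 8.97 to 17.5 CPM with the inhibitor, and the difference of contrasts was 0.84 (SE 0.31, edgeR adjusted p = 1). The other genes with the smallest p for this difference were Sec11c, a subunit of the signal peptidase (1.82, SE 0.43), Acrbp (2.48, SE 0.72), Ccar1 (0.92, SE 0.26) and Camk2b, a calcium-dependent kinase (-0.99, SE 0.26), each with an edgeR adjusted p of 1.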

How the data were processed

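Poly-A RNA from snap-frozen mouse intestine was sequenced with a directional library kit, per the labels' protocols. The authors deposited expected counts per gene, rounded to whole numbers, and a second table of normalized signal that was used only as an alternative. Salmon 0.14.1, an unversioned DESeq2 and GRCm38 (mm10) are listed in the submitters' processing notes, and further settings were not given in the sources at hand. The members and gene lists were chosen with earlier results of these data known.

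Of 29720 genes, 15317 passed filterByExpr by group in the 23 transfer libraries, and every fit but the one without a filter used those. Counts were scaled by TMM and fitted in R 4.3.3 with edgeR 4.0.16 (robust quasi-likelihood, terms for group and batch). Tests were two-sided, p-values were adjusted by Benjamini-Hochberg across the tested genes, and the threshold was 0.05. SE and 95% intervals are Wald values from the fitted weights and the moderated dispersion, and can differ from the F-test. For Pan2 and Krt13 the interval with the batch term left out zero, at unadjusted edgeR F-test p of 0.0838 and 0.0662. Levels are CPM on TMM-scaled sizes, and the level of a list is the mean over its members of log2 CPM (prior count 2). The labels name no molecular identifiers, so counts may include PCR copies.

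All 4 combinations of batch term and vehicle replicate 3 were fitted. Further alternatives were RLE scaling, DESeq2 1.42.0, limma 3.58.1 (voom with quality weights, and the deposited normalized signal after adding 1), no filter, a replicate block, the 2 inflamed groups alone, single batches, a 2-fold minimum and each library left out. Leaving out vehicle replicate 3 with the 5 libraries at 10 CPM or more of Prss2, or with vehicle replicate 1, was added after seeing the data.

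Genes named were 20 pathway and cytokine genes always, the genes with the smallest p in each direction to a total of 5 at a mean of at least 1 CPM, up to 2 members of smallest p per list, and, at the same mean level, the 5 smallest p for the difference between inflamed and non-inflamed mice. Other list members named were chosen after their values were seen. Of 699 entries in 40 lists, 693 matched a gene. The model code was tested on simulated data.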

Additional observations from a re-analysis of the deposited data

Results flagged for a closer look

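Among 70 sets of 6 libraries examined, 9 held a library whose gap to its nearest neighbour was large for the range of the set. For normally distributed values, chance meets this criterion in about 1 of 20 sets. CPM values are skewed and the sets share libraries, so the 9 are not set against that rate. Vehicle replicate 3 stood alone for Mttp at 2418 CPM (next 201.5), Apoa1 at 11510 CPM (next 347.7) and Sis at 6515 CPM (next 195.9). Vehicle replicate 1 stood alone for Prss2 at 3414 CPM and Cela2a at 2787 CPM, both pancreatic enzymes, and for Amz1 at 1.029 CPM, the lowest of its group. Vehicle replicate 6 had the highest Ccl2 at 47.19 CPM (next 16.94). Inhibitor replicate 3 had the highest Sis of its group at 0.9502 CPM. Inhibitor replicate 2 had the highest Nrn1 of its group at 0.6211 CPM (next 0.1989).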

How the results depend on the processing

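With the inhibitor in inflamed mice, 0 genes were called without the batch term, without vehicle replicate 3 (with or without the batch term), without a count filter, in the 2 inflamed groups alone (with or without the batch term), in batch 4 alone (with or without vehicle replicate 3), and without vehicle replicates 1 and 3 (with or without the batch term). Leaving out vehicle replicate 3 with the libraries that hold pancreatic transcripts gave 0 with the batch term and 1 without it (Tmem191c), an alternative added after seeing the data. DESeq2 called 5 (Nrn1, Rfc1, Btbd7, Gm5940 and Gm27149, all lower) and batch 3 alone 4 (Prap1, Apoa1 and Anpep lower, Grk6 higher, against 1 vehicle library). Leaving out each library in turn gave 0 to 1, and 1 only without inhibitor replicate 2. The cause of these changes was not tested. RLE scaling, limma-voom and limma on the normalized signal each gave 1, Nrn1. A 2-fold minimum also left Nrn1, as it must at a log2 fold change of -3.97, so it is no separate check.

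For the difference between inflamed and non-inflamed mice, DESeq2 called 9 and limma-voom 1, and the other alternatives 0. The median log2 fold change over mRNAs with the 9-base motif was -0.019 with the batch term, 0.022 without it, and -0.0076 and 0.033 for the same fits without vehicle replicate 3. For the 107 genes named by rule, 3210 values under alternatives held 298 changes of sign, all in genes without a call, over 72 genes, and 1 became a call.

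No pairing was read from the replicate numbers, since same-numbered inflamed libraries correlated over 0.1 in 2 of 6 pairs (median 0.061), and 1 vehicle library correlated best with its own number. The fit with a replicate block and batch called 0 genes, with 1687 (11%) at an unadjusted p under 0.05. That share was 3.05% in the same fit without the block, 12.4% with limma-voom and 7.44% without vehicle replicate 6. The block in the 2 groups alone called 0. The low depth of batch 3 (5.95 to 7.16 M counts) and its 1 vehicle library limit what that batch can show.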
